A study of Homo sapiens with 16 samples.

Results

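Among the places where BG4 marked G-quadruplex DNA in A549 cells, 872 loci were in both knockdown lists, absent from the control list and on an H3K4me3 peak. They were chosen by peak calls alone. The peaks of the 3 BG4 lists (siControl, siBAZ2A and siBAZ2B) were merged wherever they shared at least 1 base. A merged locus was kept if it held a siBAZ2A and a siBAZ2B peak, held no siControl peak, and shared at least 1 base with a siControl H3K4me3 peak. The 872 loci were 15.8% of the 5517 merged BG4 loci at H3K4me3 and part of 6206 merged loci in all. Without the H3K4me3 condition there were 935, or 15.1% of all loci. The rule itself fixes these shares, so nothing is read from them.

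A549 is an established human lung carcinoma cell line. All cells received 71 nM siRNA for 48 hours: siControl in the control cells, siBAZ2A or siBAZ2B in the knockdown cells. BG4 CUT&Tag was made in all 3 conditions and H3K4me3 CUT&Tag in siControl cells only, with 4 libraries in each of these 4 groups. Every group was deposited as 1 list of the peaks found in at least 2 of its libraries. A locus absent from the siControl list may therefore still have been called in 1 siControl library. All peaks of the list carry 1 run name, so a locus missing from that run may be absent although called in more libraries. The values of a list come from 1 run per group, whose name its peaks carry, and which labelled library that run is could not be worked out. Each fold, width and summit below is thus the value of 1 run. No value below has an error between cultures, no p-value is given, and intervals are 95% Wilson intervals that cover counting error over loci only. Sequencing depth was not analysed here, nor was the efficiency of either knockdown.

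G-quadruplexes form where guanine-rich DNA folds into stacked planar tetrads of guanines. They are found mainly at nucleosome-poor, active promoters, and BG4 is an antibody fragment that recognises the folded structure. H3K4me3, trimethylation of lysine on histone H3, marks the nucleosomes that flank active promoters. BAZ2A, also called TIP5, works with an ISWI ATPase to move nucleosomes and silence ribosomal RNA genes in the nucleolus. BAZ2B is its close relative, and both carry a bromodomain and a PHD finger that bind histone tails. The comparison asks at which promoter-type regions G4 signal was called after depletion of either protein and not in control cells.

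Each of the 872 loci lay on an H3K4me3 peak of its own. None of them touched more than 1 H3K4me3 peak, and no H3K4me3 peak held more than 1 of them. In 863 loci there was 1 peak from each knockdown list, and 9 loci merged 3 peaks. The loci had a median width of 647.5 bp (quartiles 545 and 765.5) and covered 581.0 kb together. They occupied 4.69% of the 18596 H3K4me3 peaks (4.39 to 5.00). They were spread over 23 chromosomes, and 33 of them lay on chromosome 8.

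The other classes of loci at H3K4me3 show how common this combination was. All 3 lists held 2207 loci, siBAZ2A alone 655 and siBAZ2B alone 995. The siControl list shared 209 loci with siBAZ2A only and 298 with siBAZ2B only, and held 281 alone. The loci of both knockdowns without siControl were thus the most numerous of the 3 classes held by exactly 2 lists. The siControl list was the shortest, with 3332 peaks against 4257 and 4865, and class sizes depend on list length. Of the 935 loci called in both knockdowns and not in siControl, 93.3% lay at H3K4me3 (91.5 to 94.7), and of all 6206 merged loci 88.9% (88.1 to 89.7). The share was 95.05% in the loci of all 3 lists (94.1 to 95.9) and 90.9% in those of siControl and siBAZ2A (86.4 to 94.0). It was 86.8% of the loci of siBAZ2A alone (84.1 to 89.0) and 83.5% of those of siBAZ2B alone (81.3 to 85.5). The lowest shares were 77.8% in the loci of siControl and siBAZ2B (73.4 to 81.7) and 72.2% in those of siControl alone (67.6 to 76.5).

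**Figure D1:**
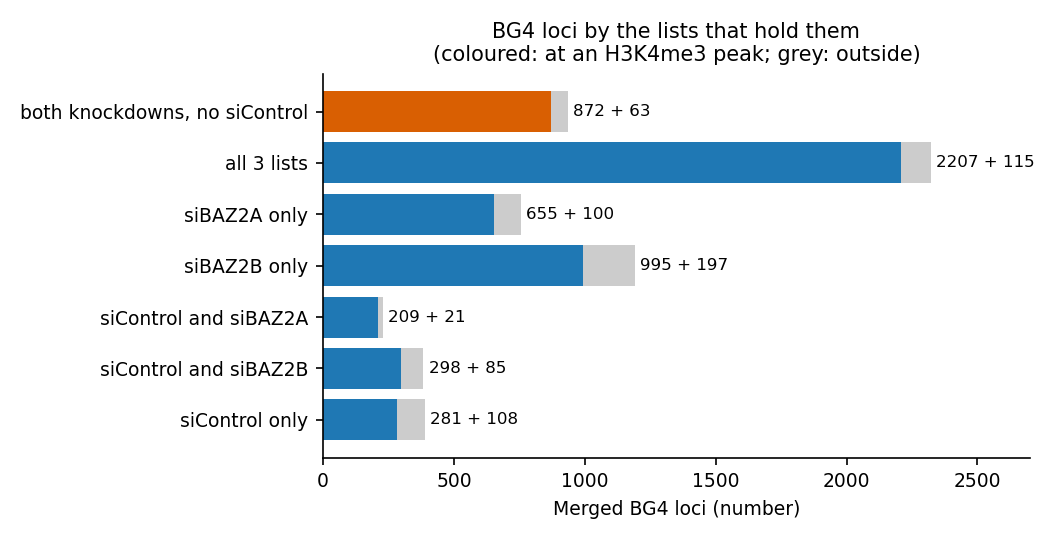
Number of merged BG4 loci (horizontal axis) in each class of lists, with the part at an H3K4me3 peak in colour and the part outside in grey, and both numbers printed beside the bar. The loci of both knockdowns without siControl (orange) number 872 at H3K4me3 and 63 outside it.

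Loci of a knockdown list that had no siControl peak are called gained here. In siBAZ2A these were 1527 of 3943 loci at H3K4me3, or 38.7%, and in siBAZ2B 1867 of 4372, or 42.7%. The 872 loci made up 57.1% of the gained siBAZ2A loci (54.6 to 59.6) and 46.7% of the gained siBAZ2B loci (44.5 to 49.0). Loci that did have a siControl peak were more often in both knockdown lists: 91.3% of those in siBAZ2A (90.2 to 92.4) and 88.1% of those in siBAZ2B (86.8 to 89.3). All of these shares rest on the calls that define the classes, and both knockdowns are compared with the same siControl list.

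How often a gained locus was shared followed the strength of its peak. Fold here is a peak's enrichment over local background as the authors' peak caller computed it, and it is ranked only within its own list. Folds of the 2 knockdowns are printed side by side below. Equal folds need not be equal ranks, since the list medians were 7.01 in siBAZ2A and 6.17 in siBAZ2B. Among the gained siBAZ2A loci, 41.4% of those in the weakest quintile of fold (37.0 to 45.9) also had a siBAZ2B peak, and 87.1% of those in the strongest (79.8 to 92.0). The gained siBAZ2B loci showed the same order, with 35.3% (31.0 to 39.9) in the weakest and 70.9% (64.1 to 76.9) in the strongest quintile. Of the siBAZ2A loci with a siControl peak, 76.4% (70.9 to 81.2) were shared in the weakest quintile and 98.5% (97.3 to 99.1) in the strongest. For siBAZ2B these shares were 76.5% (71.8 to 80.7) and 95.7% (93.9 to 96.9). These shares use the calls of the rule as well, and no difference between them was tested.

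**Figure D2:**
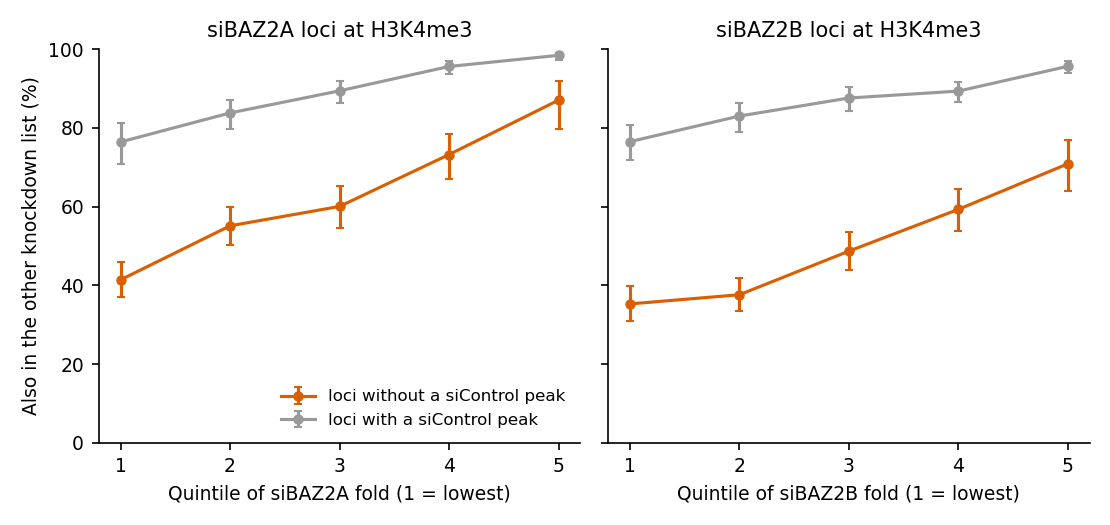
Percentage of loci at H3K4me3 that were also in the other knockdown list (vertical axis) by quintile of peak fold (horizontal axis), for siBAZ2A (left) and siBAZ2B (right), with bars for 95% Wilson intervals. The orange line (no siControl peak) climbs from 41.4% to 87.1% on the left and from 35.3% to 70.9% on the right, below the grey line (with a siControl peak) throughout.

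The 872 loci were of middle strength. Their siBAZ2A peaks had a median fold of 6.64 (quartiles 5.74 and 7.84, range 3.31 to 13.3), and their siBAZ2B peaks one of 6.16 (5.32 and 7.08, range 2.97 to 11.7). The siBAZ2A median lay between those of the loci in siBAZ2A alone (5.86) and in all 3 lists (7.90). The siBAZ2B median lay in the same way between 5.54 and 6.74. This middle position was not particular to the 872 loci. The median siBAZ2A fold was 6.29 in the loci of siControl and siBAZ2A. In the loci of siControl and siBAZ2B the median siBAZ2B fold was 5.86. Classes are set by how many lists called a locus, so this order is not independent of the rule. Over the whole lists the median fold was 7.01 in siBAZ2A, above that of the 872 loci, and 6.17 in siBAZ2B. In the siBAZ2A list, 11.5% of the 872 loci fell in the top quintile of fold (9.52 to 13.8) and 22.0% in the bottom quintile (19.4 to 24.9). In the siBAZ2B list these shares were 15.4% (13.1 to 17.9) and 17.9% (15.5 to 20.6). A −log10 q of at least 5 was reached in both lists by 525 loci, or 60.2% (56.9 to 63.4), against 86.4% of the loci in all 3 lists (84.9 to 87.7).

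Peak width gave the same order as fold, and this order too is not independent of the rule. The median siBAZ2A width was 507 bp in the 872 loci, 414 bp in the loci of siBAZ2A alone and 639 bp in those of all 3 lists. The siBAZ2B widths were 553 bp, 430 bp and 681 bp. The loci of siControl and siBAZ2A had a median siBAZ2A width of 490 bp. Those of siControl and siBAZ2B had a median siBAZ2B width of 508 bp.

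A locus strong in one knockdown was only loosely strong in the other. Across the 872 loci, siBAZ2A and siBAZ2B fold had a Spearman correlation of 0.30 (Pearson 0.35), against 0.55 (Pearson 0.64) across the 2207 loci of all 3 lists. The points of each correlation share their genomic sequence and the peak caller, and the range of folds was narrower in the 872 loci, so the coefficients are a description only. The top quintile of both lists held 34 of the 872 loci (3.899%), and the bottom quintile of both held 61 (6.995%). Another 10 of the 872 loci were in the top quintile of siBAZ2A and the bottom quintile of siBAZ2B, and 10 showed the opposite. Of the 2207 loci of all 3 lists, 402 (18.2%) were in the top quintile of both knockdown lists and 79 (3.58%) in the bottom quintile of both. These counts depend on how many loci of a class lie in each quintile of either list, so they do not measure the match between the knockdowns alone.

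**Figure D3:**
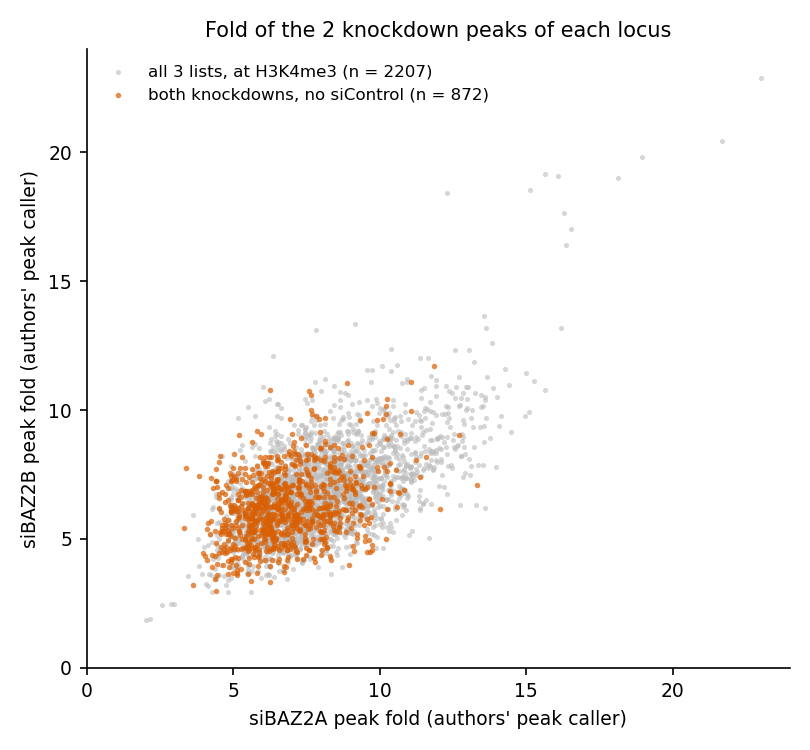
Fold of the siBAZ2A peak (horizontal axis) and of the siBAZ2B peak (vertical axis) of each locus at H3K4me3, for the 872 loci without siControl (orange) and the 2207 loci of all 3 lists (grey). The orange points lie in the lower part of the grey cloud, up to a fold of 13.3 in siBAZ2A and 11.7 in siBAZ2B.

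The strongest loci were ranked by the worse of their within-list positions, so that a locus had to be strong in both knockdowns, and loci on chromosome 8 are not named. Coordinates are hg19, written 1-based, and span the merged locus. First came chrX:47092760-47093211, with a fold of 11.9 in siBAZ2A and 11.7 in siBAZ2B. Its siBAZ2B peak was in the top 0.925% of that list and its siBAZ2A peak in the top 3.15%. It lay wholly inside an H3K4me3 peak of 1121 bp with a fold of 13.3, and its summits were 40 bp apart in the 2 knockdowns. The nearest siControl BG4 peak was 14723 bp away.

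Chromosomes 1 and 12 held 5 of the 10 strongest loci. At chr1:244614923-244615668 the folds were 11.1 in siBAZ2A and 9.95 in siBAZ2B, and at chr1:59762145-59762791 they were 12.7 and 9.02. The second of these stood 4531559 bp from any siControl BG4 peak, although the promoter-type region under it had an H3K4me3 fold of 9.97. On chromosome 12, the locus chr12:27090859-27091426 had folds of 11.1 in both knockdowns and summits 19 bp apart. The locus chr12:82752241-82752651 had 10.7 in siBAZ2A and 9.06 in siBAZ2B, with the siBAZ2A summit 6 bp from the H3K4me3 summit. At chr12:127650406-127651027 the folds were 10.2 and 10.2, on a narrow H3K4me3 peak of 553 bp. Apart from this last locus, the H3K4me3 peaks of these 5 loci were between 1190 and 1781 bp wide.

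The rest of the 10 were on 4 other chromosomes. The locus chr16:188444-188941 had folds of 10.3 in siBAZ2A and 10.4 in siBAZ2B. At chr18:12883862-12884331 they were 10.3 and 8.89, and at chr2:42588095-42588936 they were 10.2 and 9.83. The locus chr10:38265199-38265750 closed the list with 10.1 and 9.64. In all 4 of them the summits of the 2 knockdowns were 20 to 45 bp apart, closer than in most of the 872 loci. The chromosome 16 and chromosome 10 loci lay on strong H3K4me3 peaks, with folds of 11.9 and 12.7.

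At the other end of the ranking, a locus could be weak in 1 knockdown alone. The lowest locus, chr3:37217598-37218150, had a fold of 3.31 in siBAZ2A and 5.43 in siBAZ2B. The next, chr6:39082559-39083154, had 3.39 in siBAZ2A and 7.75 in siBAZ2B, where it was in the top 17.9% of the list. The third, chr14:105557961-105558520, was near the bottom of both lists, with 4.43 and 2.97.

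The rule bounds how far apart the summits of a locus can lie, since its peaks had to overlap and the locus had to touch an H3K4me3 peak. Within these bounds the distances were as follows. The median distance between the siBAZ2A and siBAZ2B summits was 87 bp (quartiles 38.75 and 162.25), and it was 64 bp (26 and 133) in the loci of all 3 lists. Within 50 bp of each other were 33.9% of the summit pairs (30.9 to 37.2), against 41.5% (39.4 to 43.5). From the siBAZ2A summit to the H3K4me3 summit the median distance was 128 bp, and from the siBAZ2B summit 138 bp. In the loci of all 3 lists these were 119 and 124 bp, and in the loci of 1 knockdown alone 123 bp (siBAZ2A) and 118 bp (siBAZ2B). The siBAZ2A distance was 139 bp in the loci of siControl and siBAZ2A. The siBAZ2B distance was 141.5 bp in those of siControl and siBAZ2B. All of these medians lay between 118 and 141.5 bp.

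Almost every summit was inside the H3K4me3 peak, in 865 of 872 loci for siBAZ2A (99.2%) and in 862 for siBAZ2B (98.9%). This was so in other classes too. For siBAZ2A it was 99.3% in all 3 lists and 98.6% in siBAZ2A alone. For siBAZ2B it was 99.3% in all 3 lists and 98.5% in siBAZ2B alone. The whole siBAZ2A peak was inside in 84.3% (81.7 to 86.6), against 78.7% in all 3 lists and 81.1% in siBAZ2A alone. The whole siBAZ2B peak was inside in 81.9% (79.2 to 84.3), against 76.1% in all 3 lists and 83.0% in siBAZ2B alone. Measured from the midpoint of the H3K4me3 peak, 72.6% of the siBAZ2A summits (69.5 to 75.4) fell in its central 50%. The loci of all 3 lists had the same share, 72.6% (70.7 to 74.4).

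H3K4me3 peaks that carried one of the 872 loci were wide. Their median width was 1391.5 bp (quartiles 1113.25 and 1683), against 1403 bp over all 5517 BG4 loci at H3K4me3 and 998 bp (649 and 1364) for the 13127 H3K4me3 peaks without any BG4 peak. The loci of all 3 lists sat on somewhat wider peaks (1484 bp). Those of siBAZ2A alone (1361 bp) and of siBAZ2B alone (1313 bp) sat on somewhat narrower ones. The H3K4me3 peaks under the 872 loci had a median −log10 q of 46.1, near the 47.7 of all 3 lists and above the 24.5 of peaks without BG4. Their median H3K4me3 fold was 8.55, against 7.96 for all 3 lists, 8.24 over all BG4 loci at H3K4me3 and 7.92 without BG4. The median was higher, at 8.63, for siBAZ2B alone. It was 8.24 for siBAZ2A alone, 7.98 for siControl and siBAZ2A, 8.36 for siControl and siBAZ2B and 8.35 for siControl alone.

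Taken over the 15613 H3K4me3 peaks that had no siControl BG4 peak, 866 (5.55%, 5.20 to 5.92) carried a locus of both knockdowns. This share was 1.34% (1.01 to 1.77) in the narrowest quintile of H3K4me3 width, 5.45% (4.71 to 6.29) in the middle quintile and 10.4% (9.33 to 11.7) in the widest. Against H3K4me3 fold it was 2.65% (2.15 to 3.26) in the weakest quintile, 6.99% (6.14 to 7.95) in the middle and 6.23% (5.45 to 7.12) in the strongest. The order by width was therefore steeper than that by fold. The share also rose with width for the peaks of 1 knockdown alone. For siBAZ2A alone it was 2.02% in the narrowest and 7.51% in the widest quintile. For siBAZ2B alone it was 2.84% in the narrowest, 10.3% in quintile 4 and 8.40% in the widest. A wider peak also has more bases at which a BG4 peak can touch it.

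The order by width was present at each level of H3K4me3 fold. In the weakest tertile of fold, 1.26% of the narrowest, 2.06% of the middle and 8.06% of the widest tertile of H3K4me3 peaks without siControl BG4 carried one of the loci. In the strongest tertile of fold these shares were 3.30%, 7.13% and 12.2%, the last with an interval of 9.55 to 15.4. Within each tertile of width the share was also higher at stronger H3K4me3, from 8.06% to 12.2% in the widest tertile and from 1.26% to 3.30% in the narrowest.

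**Figure D4:**
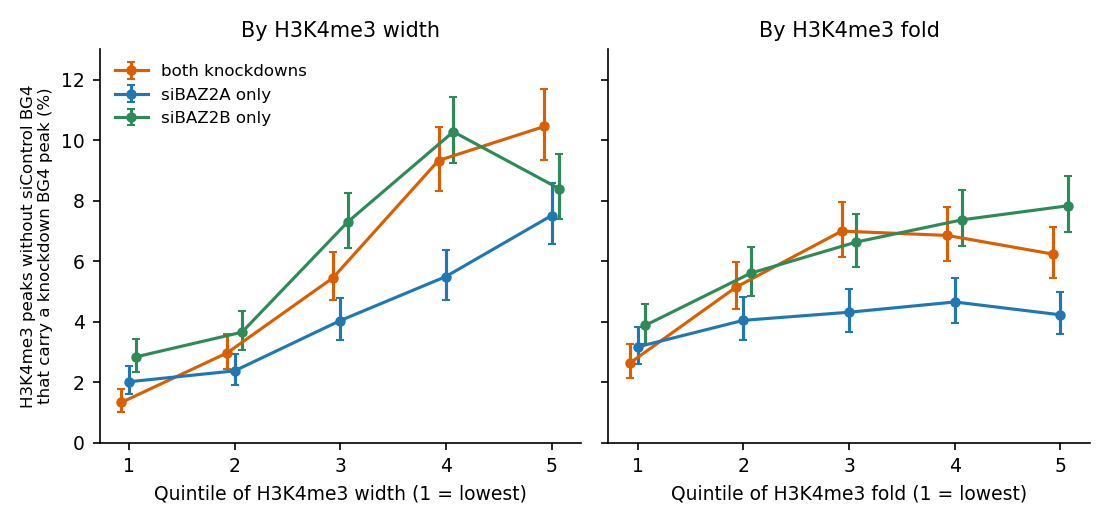
Percentage of H3K4me3 peaks without a siControl BG4 peak that carried a BG4 peak of both knockdowns (orange), of siBAZ2A alone (blue) or of siBAZ2B alone (green), by quintile of H3K4me3 width (left) and of H3K4me3 fold (right), with bars for 95% Wilson intervals. The orange line goes from 1.34% to 10.4% with width, and levels off near 6.99% from the middle quintile of fold.

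The widest H3K4me3 peaks carried weak BG4 peaks. The locus chr17:7745576-7746029, on an H3K4me3 peak of 3584 bp, had folds of 4.86 in siBAZ2A and 3.91 in siBAZ2B. The locus chr20:304803-305285, on 3521 bp, had 4.79 and 4.48. A locus at chr1:149813105-149813831, on 3182 bp, had 4.44 and 4.03. All 3 were among the weakest 10% of both lists. Across the 872 loci, however, BG4 fold and H3K4me3 width had Spearman correlations of only −0.07 in siBAZ2A and −0.10 in siBAZ2B. The narrowest H3K4me3 peaks were 305 bp wide and lay at chr11:67146955-67147381, chr12:102933569-102934136 and chr9:116282020-116282727. Their siBAZ2A folds were 5.13, 6.02 and 7.11, and their siBAZ2B folds 3.80, 8.01 and 5.70.

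Few of the loci lay beside a control G4 site, but the rule itself removes any locus that touches one. This limits how often a siControl peak can lie on the same H3K4me3 peak, so nothing is read from that low share. An H3K4me3 peak that also carried a siControl BG4 peak elsewhere lay under 6 of the 872 (0.688%, 0.316 to 1.49). With a reciprocal overlap of 50% as the condition for a shared peak, the share was 5.35% (3.96 to 7.17). The loci of siBAZ2A alone had such a peak in 8 of 655 cases and those of siBAZ2B alone in 11 of 995, so this was similarly rare in the other gained classes. The median distance to the nearest siControl BG4 peak was 168208 bp, and 39.0% (35.8 to 42.3) had one within 100 kb. For the loci of all 3 lists, the nearest siControl peak outside the locus was a median of 77051 bp away, and 55.5% (53.4 to 57.6) had one within 100 kb. H3K4me3 peaks without any BG4 peak had a median distance of 239750 bp, with 32.2% (31.4 to 33.0) within 100 kb. The loci of siBAZ2A alone (160940 bp, 41.1%) and of siBAZ2B alone (148248 bp, 41.5%) were near the 872 loci in both measures.

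At the limit set for siControl overlap, few loci were close. Outside chromosome 8, the loci nearest to a siControl peak without touching it were chr19:48837005-48837644 at 158 bp, chr19:41222544-41223534 at 392 bp and chr11:61582465-61583096 at 608 bp. Just outside the rule were loci of all 3 lists in which the siControl peak overlapped the knockdown peaks least. These were a locus on the alternative haplotype 6_ssto_hap7 (192 bp of overlap summed over the knockdown peaks), chr6:159065400-159066184 (244 bp) and chr7:44924821-44925579 (253 bp).

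At the H3K4me3 limit, again outside chromosome 8, the smallest overlaps with H3K4me3 were 175 bp at chr2:219860671-219861107, 194 bp at chr14:76002106-76002656 and 220 bp at chr3:129345222-129345669. The nearest loci on the other side were 660 bp from an H3K4me3 peak at chr17:79368862-79369294, 801 bp at chr1:9885345-9885942 and 1036 bp at chr17:27918521-27919094.

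Chromosomes differed in how many of their H3K4me3 peaks carried one of the 872 loci. Among chromosomes with at least 200 H3K4me3 peaks, chromosome 7 had the most, with 61 loci or 73.6 per 1000 H3K4me3 peaks (57.7 to 93.4). Chromosome 22 had the fewest, with 11 loci or 28.2 per 1000 (15.8 to 49.8). Chromosomes 17 and 19, whose H3K4me3 peaks carried loci of all 3 lists most often (190.6 and 211.04 per 1000), had only 37.9 (28.5 to 50.4) and 37.3 (28.1 to 49.4) of the 872 loci per 1000. They held 45 and 46 of these loci, 5.16% and 5.28%, against 10.2% and 11.8% of the loci in all 3 lists. Counted per 1000 H3K4me3 peaks without a siControl BG4 peak, chromosome 17 had 51.1 of the loci (38.4 to 67.7) and chromosome 19 had 47.05 (35.1 to 62.8), against 55.5 over all chromosomes. The loci and the all-list loci were nearly equal in density on chromosome 18 (42.4 and 38.9 per 1000) and chromosome 6 (32.2 and 36.6 per 1000).

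**Figure D5:**
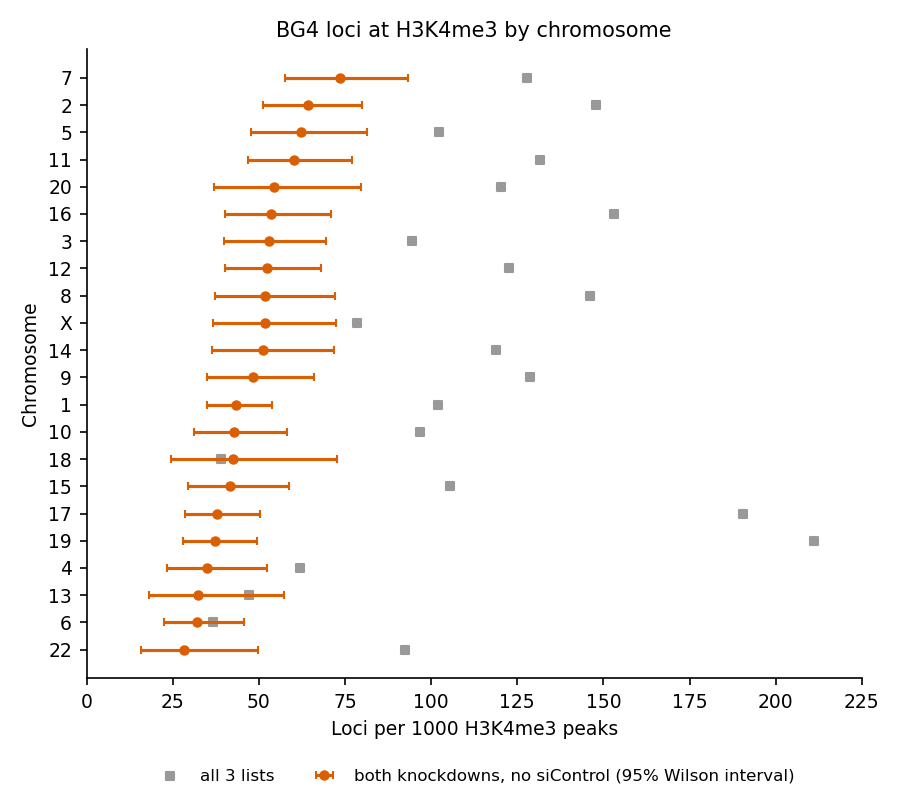
Loci per 1000 H3K4me3 peaks (horizontal axis) on each chromosome with at least 200 H3K4me3 peaks, for the 872 loci of both knockdowns without siControl (orange, with 95% Wilson intervals) and the loci of all 3 lists (grey squares). The orange points run from 28.2 on chromosome 22 to 73.6 on chromosome 7, while the grey squares reach 211.04 on chromosome 19.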

How the data were processed

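The submitters' processing notes name the builds hg19 and dm6 and, with no role or order, the tools MACS2 2.1.4, SAMtools 1.15.1, Bowtie2 2.4.5, bedtools and Picard. A deposited list holds the peaks present in 2 or more libraries of its group, at the coordinates of the library with the longest peak list, per the labels. Column values used here are the fold enrichment (a ratio), the −log10 q-value and the summit offset (a position in the peak, in bases), as deposited by the authors for each peak. The peak names of a list carry 1 run name, so these are values of 1 run per group, and its labelled replicate is not known. They were not rescaled. A Drosophila chromatin spike-in was added, per the labels' protocols. Whether values were scaled to it: not given in the sources used here.

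Merging, overlaps, medians and Wilson intervals were computed with Python 3.11.15, pandas 2.3.3, NumPy 2.4.6 and SciPy 1.17.1 and drawn with matplotlib 3.10.9. The members were also counted with bedtools 2.31.1, which gave 872. The merging was tested on simulated loci that were far apart and had widely overlapping peaks, so slight overlaps were not tried. A locus takes the values of its peak of highest fold in each list and of the H3K4me3 peak that overlaps it most. Quintiles and tertiles are those of the whole list. The rule, the members and the lists were chosen with earlier results of these data known. Named loci are the 10 highest and 3 lowest by the worse within-list fold rank, 3 at each end of H3K4me3 width, 3 on each side of both overlap limits, and the chromosomes at both ends of density. H3K4me3 peaks with 3 or more loci were to be named, and there were 0. Loci on chromosome 8 were counted and not named. Genes, promoters and G4 motifs were planned, but an hg19 genome or annotation was not used here, so loci are given by position.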

Additional observations from a re-analysis of the deposited data

How the results depend on the processing

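No paired analysis was possible because a group has the values of 1 run only, whose labelled replicate is not known, and leaving out a library could not be done for the same reason. Of 64 values under other settings, 39 stayed within the interval of the reported value (for the number of loci, within 1.5 times) and 25 did not. The number of loci was 872 as reported, and it was 499 with lists of equal length, 209 with the stronger 50% of each knockdown list and 514 with the stronger 50% of H3K4me3 peaks. These settings use fewer peaks by construction. Between 595 and 869 loci were found under the other 5 settings. The share of gained siBAZ2A loci that were in both knockdowns (57.1%) was 52.1% at a −log10 q of at least 5, 49.0% at equal length, 42.7% in the stronger 50%, 44.6% with a reciprocal overlap of 50% and 59.7% with the stronger H3K4me3 peaks. The share of gained siBAZ2B loci (46.7%) was 43.6% at equal length, 29.1% in the stronger 50% and 36.4% with reciprocal overlap. The share of loci on an H3K4me3 peak with a siControl BG4 peak elsewhere (0.688%) was 0.200% at equal length, 0% in the stronger 50%, 0% with merging up to 1 kb and 5.35% with reciprocal overlap, which no longer counts slight overlaps with siControl as shared. The median H3K4me3 width (1391.5 bp) was 1328 bp in the stronger 50% and 1270 bp with the stronger H3K4me3 peaks. The median H3K4me3 fold (8.55) was 9.06 at equal length, 9.46 in the stronger 50% and 9.88 with the stronger H3K4me3 peaks. The median distance between the knockdown summits (87 bp) was 73 bp at a −log10 q of at least 5, 67 bp at equal length and 55 bp in the stronger 50%. The median distance to the H3K4me3 summit (128 bp) was 113 bp at equal length and 104 bp in the stronger 50%. Except where a setting's construction is named, the cause was not tested. Other settings for G4 motifs and transcription starts were not run, since an hg19 genome and annotation were not used here. Depth was not analysed here, so how far it limits the calls in each list was not tested.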

Other observations

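Neighbouring loci among the 872 on the same main chromosome were a median of 1519180 bp apart. Of 839 neighbouring pairs, 66 (7.87%, 6.23 to 9.89) were within 100 kb and 3 within 10 kb. The spacing of other loci was not computed, so whether the 872 loci lay closer or farther apart than others was not tested. The 3 pairs within 10 kb were chr1:149813105-149813831 with chr1:149823139-149823892, chr17:73257437-73258191 with chr17:73266523-73267692, and chr5:61699313-61700069 with chr5:61708016-61709002. They were named after their distances were seen. Another BG4 locus of any class at H3K4me3 lay within 10 kb of 78 loci (8.94%, 7.23 to 11.02). In the first 3 Mb of a main chromosome were 3.67% of the 872 loci (2.61 to 5.13), 5.17% of the loci in all 3 lists (4.32 to 6.17) and 3.75% of H3K4me3 peaks (3.49 to 4.04).

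Among the 872 loci, 9 lay on alternative haplotype contigs of chromosome 6 and 1 on a contig of chromosome 17 with no fixed position. Alternative haplotypes repeat 1 region of the chromosome, and whether any of these 9 loci are copies of 1 place was not tested.

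The peaks of the siControl list are numbered, and the numbers ascend with position along every chromosome, with gaps where a numbered peak is missing from the list. At least 1 number was skipped between the siControl peaks that flank a locus in 843 of 865 loci that had siControl peaks on both sides (97.5%, 96.2 to 98.3). This was so for 94.3% of the loci of siBAZ2A alone (92.2 to 95.8), 94.8% of those of siBAZ2B alone (93.2 to 96.0) and 89.97% of H3K4me3 peaks without any BG4 peak (89.4 to 90.5). The median number skipped was 4 around the 872 loci and 4 around H3K4me3 peaks without BG4. Whether a skipped peak lay at a locus was not tested.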
